A study of Mus musculus with 4 samples.

Results

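The heavy chain constant region genes decide the class of an antibody, and 8 of them, Ighm, Ighd, Ighg3, Ighg1, Ighg2b, Ighg2c, Ighe and Igha, were followed here out of 32285 genes in the count tables. They were chosen by name, as the functional constant regions listed in the mouse annotation, and not by any measured value. All 8 had counts in both mRNA libraries. Single-cell RNA-seq (10x Genomics, 3′ chemistry) was run on splenic B cells from 6 recipient mice on day 8 after transfer and immunization, in 2 mRNA libraries, 1 for the CD45.2+ sort and 1 for the CD45.1+ sort. Hashtag antibodies marked the mouse, so each mouse gave cells to both libraries.

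All recipients were CD45.1+ wild-type mice of 8 to 12 weeks that received mixtures of MD4 B cells and sheep red blood cells conjugated to hen egg lysozyme (SRBC-HEL). MD4 is an immunoglobulin transgene against hen egg lysozyme (HEL) that encodes IgM and IgD heavy chains together with its light chain. CD45.2+ cells carried in addition BCL2.Tg, a survival transgene restricted to B cells, and were labelled Dock8wt/wt in 3 recipients and Dock8cpm/cpm, an ENU-induced null allele of Dock8, in the other 3. CD45.1+ cells were Dock8wt/wt MD4 cells without BCL2.Tg in both recipient groups, and B cells of the host, which are CD45.1+ as well, could enter that sort. Cells were sorted as HEL+CD95+. Each sort is 1 library, so the sort, the BCL2 transgene and the library cannot be told apart. Transgenic and endogenous Ighm or Ighd reads cannot be told apart either, and the counts do not separate membrane from secreted messages or germline transcripts from switched ones.

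An antibody heavy chain is read from a rearranged variable segment joined to a constant region. Ighm lies first and gives IgM, Ighd is reached by alternative processing of the same long transcript and gives IgD, and the other genes are used after class switch recombination, in which the DNA is cut in repeats upstream of Ighm and of a downstream gene that is being transcribed from its own germline promoter. Germinal center (GC) B cells cycle between a dark zone (DZ), where they divide, and a light zone (LZ), where they are selected, and those that become plasma cells (PC) raise heavy and light chain RNA and switch to the secreted form.

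HTODemux, the hashtag caller of Seurat, gave 6569 singlets and 8048 doublets among 14617 barcodes of the CD45.2 sort, and 3294 singlets and 1562 doublets among 4857 of the CD45.1 sort. After filters, 6417 CD45.2 and 3154 CD45.1 B cells entered the analysis, 1468 and 698 of them plasma cells. Median depth outside the plasma cells was 6178 unique molecular identifiers (UMIs) per cell in the CD45.2 sort and 4550 in the CD45.1 sort. The groups were uneven: the CD45.2 cells labelled Dock8wt/wt gave 1624, 1919 and 1224 non-plasma cells per mouse, and those labelled Dock8cpm/cpm 56, 38 and 88. Kept singlets labelled Dock8cpm/cpm, plasma cells included, numbered 57, 44 and 101 by this main rule. They numbered 302, 145 and 468 with hashtags normalized over each cell, and 229, 160 and 481 with a 3-fold hashtag rule. Those labelled Dock8wt/wt numbered 1672 to 2607, 2141 to 2850 and 2087 to 3486 per mouse by the same rules. In the CD45.1 sort the group labelled Dock8cpm/cpm gave 339 to 508, 16 to 57 and 545 to 957. The 2 mRNA libraries shared 38 barcodes, among them 11 B cells called as singlets in the CD45.2 sort and 22 in the CD45.1 sort. Sex-linked RNA ran against the study's own data note, which gives the CD45.2 Dock8wt/wt cells as male: Xist was found in 97.5 to 98.0% of CD45.2 cells labelled Dock8wt/wt, and Y-linked RNA in 57.9 to 62.1% of those labelled Dock8cpm/cpm, while Xist was found in 54.7 to 69.8% of the latter and both in 36.8 to 37.2% of all of them. Dock8 RNA was 111.5, 119.5 and 104.9 CPM (counts scaled to the total of each sum) in non-plasma cells labelled Dock8wt/wt and 104.7, 110.4 and 95.8 CPM in those labelled Dock8cpm/cpm (edgeR quasi-likelihood test, adjusted p = 0.677), so it does not check the labels. Groups are therefore named by their labels, and results that rest on them are given also without the CD45.2 cells that held sex-linked RNA of the other group.

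The 8 genes lie on the minus strand of chromosome 12 (GRCm38), from Ighm at chr12:113418558-113422730 to Igha at chr12:113254830-113260236. Counted from the start of Ighm, Ighd begins 6.406 kb downstream, Ighg3 61.5 kb, Ighg1 92.21 kb, Ighg2b 114.8 kb, Ighg2c 133.8 kb, Ighe 149.5 kb and Igha 162.5 kb. Each has 2 annotated transcripts that differ at their 3′ end. Ighm and Igha each carry a stretch of coding bases that only the secreted form uses, and both encode the tail by which J chain joins IgM and IgA into polymers. The 2 stretches are shown to let these tails be compared, Ighm from chr12:113420870-113420928 and Igha from chr12:113258771-113258829, each 59 bases without the stop codon (GRCm38, minus strand, read 5′ to 3′).
Ighm: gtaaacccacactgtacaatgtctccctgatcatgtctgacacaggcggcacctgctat
Igha: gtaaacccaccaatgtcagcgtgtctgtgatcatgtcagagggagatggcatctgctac

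The 4 gamma genes are related in sequence, and reads of one can in principle be given to another where they are alike. Their coding sequences were 74.3 to 85.9% identical in pairwise alignment, with Ighg2b and Ighg2c the closest pair at 85.9%. The 3′ chemistry reads the end of a message, so the last 90 coding bases of the secreted forms are shown, with capitals at the 48 positions where the 4 genes are not all alike (Ighg1 chr12:113328979-113329068, Ighg2b chr12:113306392-113306481, Ighg2c chr12:113287392-113287481, Ighg3 chr12:113359668-113359757, GRCm38, minus strand).
Ighg1: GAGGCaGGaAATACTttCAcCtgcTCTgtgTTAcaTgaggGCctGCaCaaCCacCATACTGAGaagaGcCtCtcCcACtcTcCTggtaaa
Ighg2b: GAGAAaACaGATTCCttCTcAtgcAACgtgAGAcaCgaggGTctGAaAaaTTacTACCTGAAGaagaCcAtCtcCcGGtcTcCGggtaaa
Ighg2c: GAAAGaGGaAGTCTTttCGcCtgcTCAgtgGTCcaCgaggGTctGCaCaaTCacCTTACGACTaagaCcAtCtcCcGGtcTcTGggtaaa
Ighg3: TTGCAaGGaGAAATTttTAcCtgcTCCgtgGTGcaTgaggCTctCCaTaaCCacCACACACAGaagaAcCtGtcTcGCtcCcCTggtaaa
Ighg1 and Ighg3 were alike at 74.4% of these 90 positions and Ighg1 and Ighg2b at 65.6%. The untranslated 3′ ends and the ends of the membrane forms, which reads can also cover, were not compared. How the counting treated reads that fit more than 1 of these genes was not tested.

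The switch repeats before the constant genes are rich in AGCT, a motif that is its own reverse complement, and the region before each gene was searched for it. In the 5000 bases upstream of the gene AGCT occurred 214 times for Ighm, 133 for Igha, 114 for Ighg2b, 110 for Ighg3, 108 for Ighe, 81 for Ighg2c and 73 for Ighg1. Ighd, which is reached by RNA processing, had 19. The median over 23380 windows of the same length along chromosome 12 was 24, and 100% of windows held the motif at least once. A match is a description of the letters and not a measured site.

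Free RNA in droplet libraries gives immunoglobulin counts to cells that make none, and T cells show its level. T cells were called by 3 or more UMIs over Cd3d, Cd3e, Cd3g and Trbc2. The 41 hashtag-singlet T cells of the CD45.1 sort held 753 CPM of Ighm, with a median of 2 UMIs per cell, no Ighd UMI, 35.5 CPM of Ighg1 and 21.3 CPM of Ighg2b. The 67 T cells of the CD45.2 sort held 10730 CPM of Ighm, with a median of 12 UMIs against 37 in non-plasma B cells, 173 CPM of Ighd, 272 CPM of Ighg1 and 131 CPM of Ighg2b. The mean was 48.9 Ighm UMIs per T cell, and the CPM lay above the 5714 of non-plasma B cells. The 6 CD45.2 T cells without a B-lineage UMI held 4666 CPM of Ighm and 68.6 CPM of Ighd, the latter from 1 UMI. The CD45.2 library thus had the higher level in T cells for each of these 4 genes. T cells of that library also had a median of 4 B-lineage UMIs against 0 in the CD45.1 library, and whether they include mixed droplets was not tested.

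Ighm was the most abundant member in every state, and plasma cells held the most of it in both sorts. Clusters were built without any immunoglobulin gene and named, with the ending -like, after the study's marker lists, which the authors chose on these same libraries. In the CD45.2 sort Ighm was 87430 ± 2931 CPM (SD, n = 3 mice) in PC2-like, 66420 ± 19090 in PC1-like and 64840 ± 4677 in PC3-like cells. CD45.1 levels were 58750 ± 5612 CPM (n = 3) in PC2-like and 52790 ± 4668 (n = 5) in PC3-like cells. Among the other states the highest level was that of LZtoPrePC_Memory-like cells, 11160 ± 905 CPM (n = 3) in the CD45.2 sort, a cluster of low RNA content led by Gm42418 with a median of 2090 UMIs per cell. The lowest among states with levels from 2 or more mice was that of DZ1-like cells, which are led by DNA replication genes, at 4122 ± 312 CPM (n = 3) in the CD45.2 sort and 3015 ± 311 (n = 6) in the CD45.1 sort. Among the 9 states from EarlyGC1-like to DZ1-like in the CD45.2 sort each overlapped the next, and in the CD45.1 sort the only gap between neighbours outside the plasma cells lay between Activated_Memory-like and DZ2-like cells (4172 ± 297 CPM, n = 6).

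Ighd marked a subset of states. In the CD45.2 sort EarlyGC1-like cells held 968 ± 175 CPM (n = 4 mice), LZtoPrePC_Memory-like cells 806 ± 335 (n = 3), LZ1-like cells 750.5 ± 134 (n = 3) and LZ4-like cells 687 ± 125 (n = 2). Among these 4 no state differed from the next beyond the spread between mice. Activated_Memory-like cells followed, without overlap, with 401 ± 21.7 CPM, LZ2-like cells with 188 ± 80.8, and the DZ1-like cells with 110 ± 35.2 (n = 3 each). In the CD45.1 sort, where no mouse had 20 EarlyGC1-like cells, the highest levels were 672 ± 164 CPM in LZ1-like (n = 3), 608 ± 39.6 in LZ4-like (n = 2) and 382 ± 88.8 in Activated_Memory-like cells (n = 6), followed without overlap by 60.7 ± 21.0 CPM in LZ2-like cells (n = 6). Its DZ1-like cells held 30.5 ± 23.8 CPM (n = 6) and PC2-like cells 4.71 ± 1.36 (n = 3). The LZ4-like cluster is uncertain, since it shared 9 genes with the LZ4 list and 8 with the EarlyGC1 list and was led by Zfp608, Zfp318 and Fcmr. Set against the T cells in CPM, LZ1-like and Activated_Memory-like cells lay above the free-RNA level in both sorts, while the LZ2-like, DZ-like and plasma cells of the CD45.2 sort lay near or below its 173 CPM. Depth differed: these T cells had a median of 3698 UMIs and a mean of 0.79 Ighd UMIs per cell. The DZ-like cells had medians of 9085 to 11890 UMIs, so CPM and Ighd UMIs per cell need not rank them alike. Against the 68.6 CPM of the 6 T cells without a B-lineage UMI, LZ2-like and DZ-like cells of that sort lay above.

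**Figure D1:**
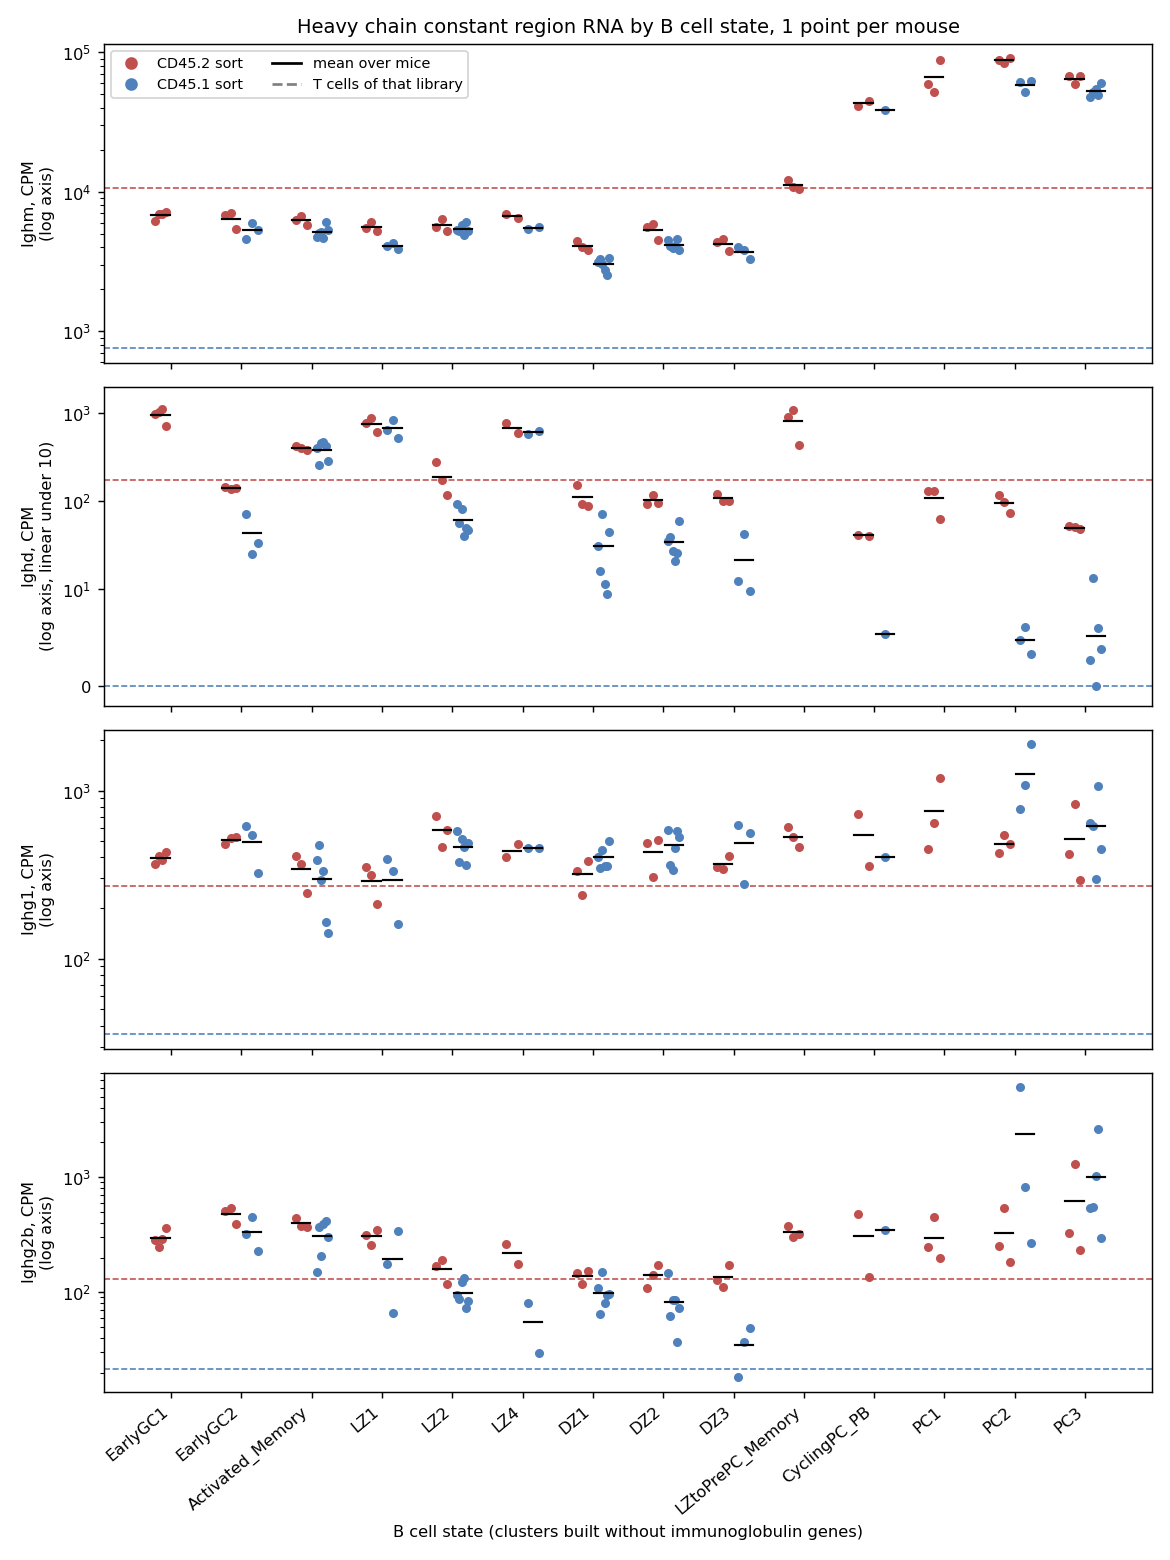
Level of 4 members by B cell state, in CPM of the counts summed per mouse (log axes, linear under 10 for Ighd), with 1 point per mouse that had at least 20 cells, black bars for means and dashed lines for the T cells of each library. Ighm stands apart in the plasma states. Ighd falls from above 600 CPM in LZ1-like to 61 CPM or less in the LZ2-like, DZ-like and plasma cells of the CD45.1 sort. In the CD45.2 sort the Ighd points of LZ2-like cells lie around the dashed line of its T cells. Those of its DZ-like and plasma cells lie below that line.

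Shares of cells gave the same picture. Each cell was thinned to 2000 UMIs, and cells with fewer were left out. Of thinned CD45.2 cells, 72.1% of EarlyGC1-like, 67.3% of LZ1-like and 44.0% of Activated_Memory-like cells had an Ighd UMI, against 26.1% of LZ2-like and 15.9 to 18.5% of DZ-like cells. Of the T cells of that sort 10 of 57 had one, which is 17.5% (95% Clopper-Pearson interval 8.75 to 29.9). The LZ2-like and DZ-like shares lie within that interval, and the part of free RNA in them was not tested. Over all non-plasma CD45.2 cells the share was 42.4% (41.0 to 43.8). Before thinning it was 69.6%, against 34.3% of the T cells. For CD45.1 cells it was 64.1% of EarlyGC1-like, 57.3% of LZ1-like and 37.2% of Activated_Memory-like cells, against 10.0% of LZ2-like cells, 0.58% of PC2-like cells and 0 of 39 T cells, which allows a share of up to 7.69%. Intervals and limits cover counting error only.

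**Figure D2:**
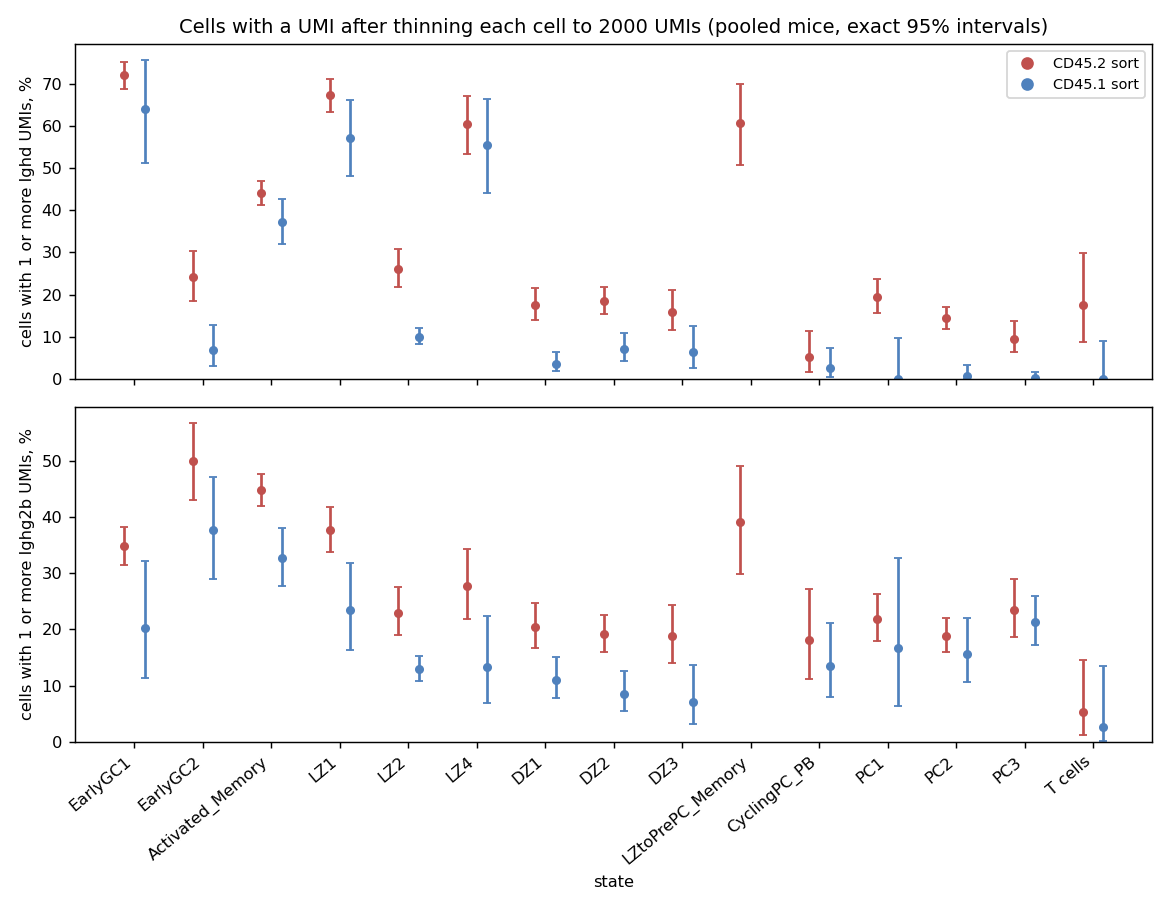
Percent of cells with at least 1 UMI of Ighd (top) or Ighg2b (bottom) after thinning to 2000 UMIs, by state and sort, with exact 95% binomial intervals over pooled mice and T cells at the right. Ighd shares of CD45.2 DZ-like cells overlap the interval of T cells in that sort (8.75 to 29.9%), whereas EarlyGC1-like cells reach 72.1%.

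Ighg2b, the IgG2b constant region, was, by mean CPM in the CD45.2 sort, highest in EarlyGC2-like and Activated_Memory-like cells outside the plasma cells. In the CD45.2 sort it was 480 ± 74.9 CPM in EarlyGC2-like and 396 ± 38.8 in Activated_Memory-like cells (n = 3), and 137 to 141 CPM in the 3 DZ-like states. The states highest in Ighd lay between these, with 334 ± 39.2 CPM in LZtoPrePC_Memory-like, 307 ± 47.0 in LZ1-like and 294.5 ± 46.4 in EarlyGC1-like cells. EarlyGC2-like cells of the CD45.1 sort held 334 ± 112 CPM (n = 3) and Activated_Memory-like cells 306 ± 108 (n = 6), against 34.6 to 99.1 CPM in the DZ-like states. After thinning, 106 of 212 EarlyGC2-like cells and 44.8% of Activated_Memory-like CD45.2 cells had an Ighg2b UMI, against 18.8 to 20.4% of DZ-like cells and 5.26% of T cells (1.10 to 14.6). With hashtag doublets included, 18.7% of 225 T cells of that sort had one (13.8 to 24.4). The CD45.1 shares were 37.8%, 32.7% and 7.14 to 11%, with 2.56% in T cells. Among non-plasma states with levels from 2 or more mice, these 2 states also held the most Ighg2c in both sorts.

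Ighg1, the IgG1 constant region, ran from 291 ± 72.0 CPM in LZ1-like to 583 ± 125 CPM in LZ2-like cells of the CD45.2 sort (n = 3), states that did not overlap, although each state overlapped the next in the order. CD45.1 levels ran from 295 to 494 CPM outside the plasma cells. After thinning 43.9% of non-plasma CD45.2 cells had an Ighg1 UMI (42.5 to 45.4) against 38.6% of T cells (26.0 to 52.4), intervals that overlap. Before thinning the shares were 70.2% and 52.2%, with means of 2.86 and 1.24 Ighg1 UMIs per cell. Median depths were 6178 and 3698 UMIs, and the part of free RNA in Ighg1 of the CD45.2 sort was not tested. Of CD45.1 non-plasma cells 39.6% had one (37.6 to 41.6) against 7.69% of T cells (1.62 to 20.9).

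The remaining genes were rare. Ighg2c was 29.9 ± 13.8 CPM in EarlyGC2-like cells of the CD45.2 sort and 37.2 ± 23.2 in those of the CD45.1 sort (n = 3 each), and 14.9 ± 8.29 and 16.5 ± 18.3 CPM in Activated_Memory-like cells. Ighg3 was 89.8 ± 28.4 CPM in CD45.2 EarlyGC1-like cells (n = 4) and 99.44 ± 50.01 in CD45.1 LZ1-like cells (n = 3), and 22.7 to 33.7 CPM in the DZ1-like and DZ2-like cells of either sort. Igha, the IgA constant region, reached 38.8 ± 21.4 CPM in CD45.1 EarlyGC2-like cells and 13.6 ± 14.3 in CD45.2 ones (n = 3 each). Ighe, the IgE constant region, stayed at 0 to 7.87 CPM in every non-plasma state with a level. Over all non-plasma cells, 1.84% of CD45.2 cells had an Ighg2c UMI after thinning, 1.16% an Igha UMI and 0.58% an Ighe UMI, while 5.26% of 57 T cells had an Ighg2c UMI and none had Igha or Ighe, which allows up to 5.26%.

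The sorts of one recipient were compared in the 3 mice that received CD45.2 cells labelled Dock8wt/wt, with the mouse as a block. Ighd, Ighg2b and Ighm were higher in the CD45.2 non-plasma cells, which carry BCL2.Tg, and Ighg1 was not called. Ighd was 438.4, 439.7 and 256.4 CPM in CD45.2 cells of mice 1 to 3 and 207.8, 140.5 and 170.2 CPM in the CD45.1 sort. Every mouse was higher in the CD45.2 sort, and the sorts did not overlap. The log2 difference was 1.08 (SE 0.15, edgeR quasi-likelihood test, Benjamini-Hochberg adjusted p = 0.0026), in a fit that called 352 of 10462 genes (3.36%).

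Ighg2b was 263.5, 236.1 and 259.0 CPM in the CD45.2 and 144.8, 132.2 and 184.6 CPM in the CD45.1 cells, again without overlap (log2 difference 0.71, SE 0.09, edgeR adjusted p = 0.00222). It lost the call in 1 of the 3 fits with a mouse left out, where the adjusted p reached 0.0657. Ighm was 5930, 6138 and 4990 CPM against 4230, 5084 and 4500 CPM. The Ighm ranges overlapped, since mouse 3 of the CD45.2 sort lay below mouse 2 of the CD45.1 sort, although each mouse was higher in its CD45.2 cells (log2 difference 0.30, SE 0.06, edgeR adjusted p = 0.0281). The Ighm call held in 1 of the 3 fits with a mouse left out and was lost without the mouse block (edgeR adjusted p = 0.0875). Ighg1 was 417.4, 365.1 and 376.9 against 385.9, 395.5 and 354.2 CPM (log2 difference 0.02, SE 0.07, edgeR adjusted p = 0.907). None of Ighg2c, Ighg3, Igha and Ighe was called, with log2 differences from -0.49 for Igha to 0.54 for Ighg2c.

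**Figure D3:**
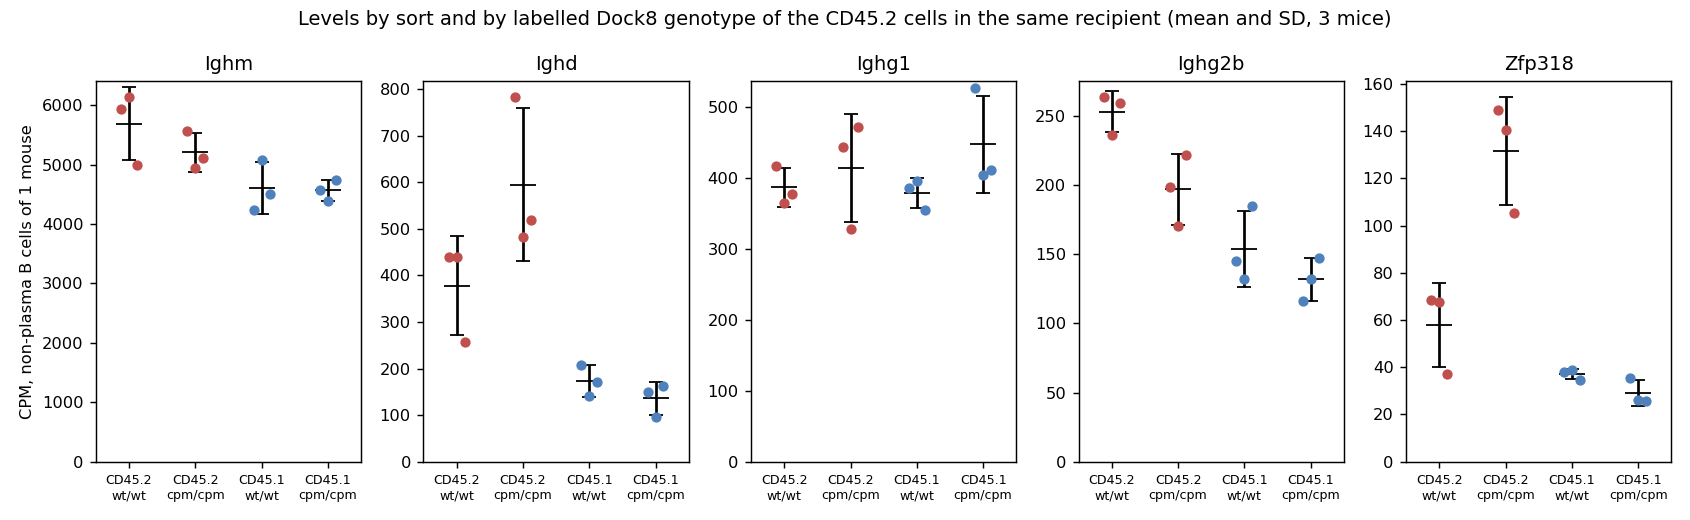
Level of Ighm, Ighd, Ighg1, Ighg2b and the Ighd processing factor Zfp318 in non-plasma B cells, in CPM with 1 point per mouse and bars for mean and SD of 3 mice, by sort and by the label of the recipient group. Ighd is highest in CD45.2 cells of the group labelled Dock8cpm/cpm (482 to 783 CPM) and lies under 210 CPM in all CD45.1 cells.

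The states were not equally mixed in the sorts. LZ2-like cells, low in Ighd, were 7.50% of non-plasma cells in the CD45.2 sort and 34.6% in the CD45.1 sort of these recipients (mean of 3 mice), and EarlyGC1-like cells, high in Ighd, were 14.9% and 3.95%. The comparison was therefore repeated in single clusters, a choice made after the data were seen. In the states with high Ighd no difference was called: the log2 difference was 0.07 (SE 0.14) in EarlyGC1-like, 0.18 (SE 0.14) in LZ1-like and 0.11 (SE 0.10) in Activated_Memory-like cells, with edgeR adjusted p of 0.965, 0.913 and 0.748. These fits called 0.455%, 0.39% and 2.22% of genes, and the smallest sums of the first 2 held 14 and 11 cells.

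In states with low Ighd a difference was called. LZ2-like cells held 275.4, 173.0 and 116.0 CPM in the CD45.2 sort and 39.8, 49.1 and 46.2 CPM in the CD45.1 sort (log2 difference 1.90, SE 0.19, edgeR adjusted p = 2.5e-19, 3.11% of genes called). In DZ1-like cells the values were 150.9, 92.5 and 87.9 against 11.4, 9.46 and 44.0 CPM (1.96, SE 0.24, edgeR adjusted p = 1.15e-11, 3.03% called), and in DZ2-like cells the log2 difference was 1.49 (SE 0.24, edgeR adjusted p = 8.99e-05, 3.16% called). No CD45.1 mouse reached the lowest CD45.2 mouse in these 3 states. The T cells of the CD45.2 library held 173 CPM of Ighd and those of the CD45.1 library none, and the part of this free RNA in the difference was not tested.

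The other members differed between states too. Ighm was called in EarlyGC1-like (log2 difference 0.43), LZ1-like (0.47), DZ1-like (0.51) and DZ2-like cells (0.40), and not in Activated_Memory-like (0.18) or LZ2-like cells (0.07). Ighg2b was called in LZ2-like (0.85), DZ1-like (0.65) and DZ2-like cells (1.13). It was not called in EarlyGC1-like, LZ1-like or Activated_Memory-like cells (0.15 in the last, edgeR adjusted p = 0.591). EarlyGC2-like cells, where its mean was highest outside the plasma cells, were not fitted alone. Ighg1, without a call over all non-plasma cells, was higher in the CD45.2 cells of the Activated_Memory-like (0.62, edgeR adjusted p = 0.00358) and LZ2-like states (0.37, adjusted p = 0.00414) and lower in DZ1-like cells (-0.33, adjusted p = 0.0484). Whether these differences differ from state to state was not tested. The T cells of the CD45.2 library held more of each of these genes than those of the CD45.1 library, 10730 against 753 CPM of Ighm, 272 against 35.5 of Ighg1 and 131 against 21.3 of Ighg2b, and Ighg2b in CD45.2 DZ-like cells (137 to 141 CPM) lay near that level. The part of free RNA in these differences was not tested.

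**Figure D4:**
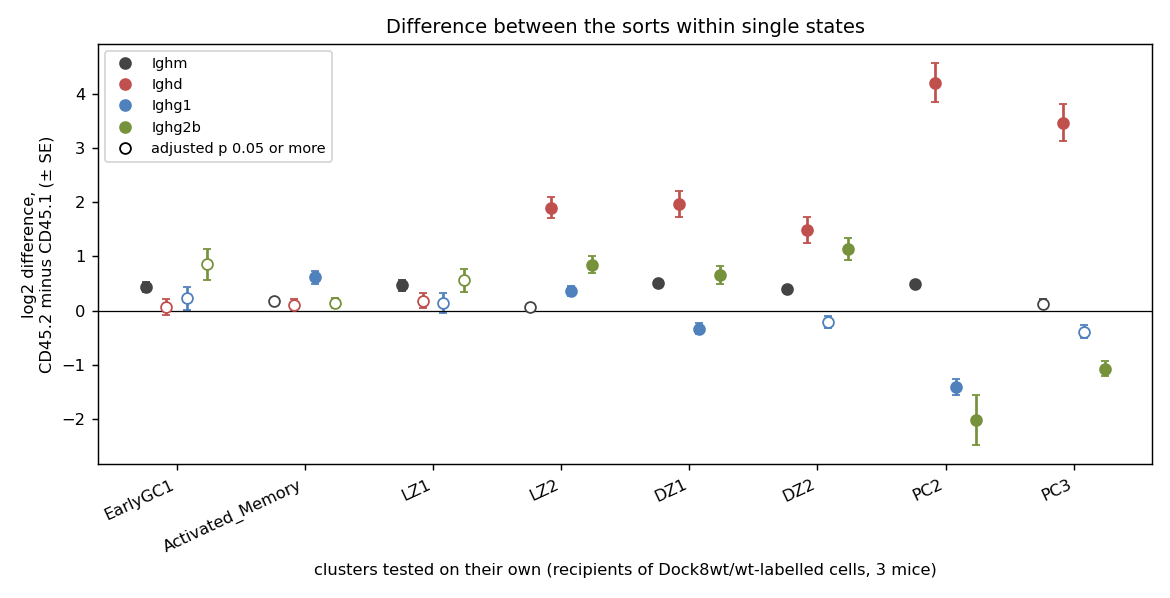
Log2 difference between the sorts (CD45.2 minus CD45.1, ± SE) of 4 members, each cluster fitted on its own in the 3 recipients of cells labelled Dock8wt/wt, with filled points for adjusted p under 0.05. Ighd (red) is near 0 in EarlyGC1-like, Activated_Memory-like and LZ1-like cells and between 1.49 and 4.21 in the others, and Ighg1 and Ighg2b are below 0 in PC2-like and PC3-like cells.

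The genes that act on the members were taken from 4 lists. None of 21 switch recombination genes was called between the sorts outside the plasma cells (median log2 difference -0.13, against 0.00399 over all genes). Of 17 genes that signal to germline promoters 1 was called, Irf4 (0.84, edgeR adjusted p = 0.0192), and of 11 tested genes of heavy chain RNA processing and transcription none. Of 8 genes of antibody assembly 3 were called, beside 3.36% of all genes in this fit, and all were higher in the CD45.2 cells: Jchain, whose product joins IgM and IgA (1.06), Pdia4, a protein disulfide isomerase (0.85), and Igkc, the kappa constant region (0.24).

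In plasma cells Ighm was again higher in the CD45.2 sort, and Ighg1 and Ighg2b were lower. Ighm was 75640, 66550 and 73720 CPM in CD45.2 and 51810, 45650 and 54470 CPM in CD45.1 plasma cells of mice 1 to 3. The sorts did not overlap (log2 difference 0.37, SE 0.08, edgeR adjusted p = 0.0016), in a fit that called 2084 of 8754 genes (23.8%). Ighg1 was 576.5, 642.4 and 467.3 against 801.7, 980.5 and 691.9 CPM, also without overlap (-0.69, SE 0.09, edgeR adjusted p = 3.94e-06). In single clusters Ighm was called in PC2-like (0.49, 10.8% of genes called) and not in PC3-like cells (0.13, edgeR adjusted p = 0.443, 5.83% called), and Ighg1 was -1.41 in PC2-like and -0.39 in PC3-like cells, the latter not called. Ighg2b was called in both, at -2.02 and -1.07.

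Ighg2b in plasma cells rested in part on single cells. It was 264.2, 652.5 and 190.5 CPM in the CD45.2 sort and 2324, 1576 and 307.0 CPM in the CD45.1 sort (log2 difference -1.82, SE 0.25, edgeR adjusted p = 1.31e-05). A pair of CD45.1 plasma cells held 1235 and 1234 Ighg2b UMIs, together 43.6% of all Ighg2b UMIs in CD45.1 plasma cells of both recipient groups. They came from mouse 1, with 1600 Ighg2b UMIs in all, and mouse 2, with 2086, of this fit. Without the cells that a switched gene led, the difference was -0.83 (SE 0.10, edgeR adjusted p = 2.39e-06). Ighg3 was 29.1, 43.4 and 165.4 against 56.6, 32.5 and 39.5 CPM (0.98, SE 0.30, edgeR adjusted p = 0.0196). One CD45.2 plasma cell of mouse 3 held 457 of 1048 Ighg3 UMIs, and the difference was 0.10 without the cells led by a switched gene (edgeR quasi-likelihood test, adjusted p = 0.764) and -0.31 without mouse 3.

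Ighd in plasma cells was low and uneven. It was 106.6, 92.1 and 57.2 CPM in the CD45.2 sort and 1.45, 90.6 and 4.16 CPM in the CD45.1 sort (log2 difference 1.42, SE 0.40, edgeR adjusted p = 0.0129), and the difference was 0.97 without mouse 1, 4.06 without mouse 2 and 0.72 without mouse 3, called in each. Without the mouse block the call was lost (1.33, edgeR adjusted p = 0.225). Of 698 CD45.1 plasma cells of both recipient groups 667 had no Ighd UMI, and 2 cycling plasma cells held 206 and 114 of the 352 UMIs counted. The first came from mouse 2 of the group labelled Dock8cpm/cpm, which did not enter this fit. The second held 114 of the 120 Ighd UMIs of mouse 2 in the fit. In the CD45.2 sort 1087 UMIs were spread over many cells, the highest with 16. In single clusters, which leave out that cell of mouse 2, the log2 difference was 4.21 (SE 0.36) in PC2-like cells, with 117.0, 97.6 and 72.6 against 4.77, 6.03 and 3.31 CPM, and 3.47 (SE 0.34) in PC3-like cells. After thinning, 13.4% of CD45.2 plasma cells had an Ighd UMI (11.7 to 15.3) against 17.5% of T cells of that library. Before thinning these shares were 42.4% and 34.3%. Of CD45.1 plasma cells 1.01% had one. Among called genes of the pathway lists, the B cell factors Pax5 (4.47) and Ebf1 (2.22), Zfp318 (3.30) and the receptor Cd40 (3.25) were higher in the CD45.2 plasma cells, in the fit that called 23.8% of genes. Their median of B-lineage UMIs was 26 against 11 per cell, and the part of mixed droplets or free RNA in these differences was not tested.

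In this fit 23.8% of all genes were called in 1 direction or the other, and the lists are to be read against that share. Over the lists, 9 of 16 tested genes that signal to germline promoters were higher in CD45.2 plasma cells and none lower: Il4ra, Il21r, Stat3, Ifngr1, Ifngr2, Tgfbr2, Runx3, Cd40 and Nfkb1 (median log2 difference 0.65, against 0.02 over all genes). Exo1 (-1.17) and Lig4 (-0.92), of the switch recombination list, were lower. Of 11 processing and transcription genes 5 were higher (Zfp318, Pcf11, Pou2f2, Pax5, Ebf1) and Xbp1, the plasma cell secretory factor, was lower (-0.35). Of 8 assembly genes Cd79a and Cd79b, the signalling partners of membrane immunoglobulin, were higher, and Mzb1, Hspa5 and Igkc were lower. Ell2, the elongation factor that favours secreted Ighm, had a log2 difference of -0.24 (edgeR adjusted p = 0.0688), Jchain -0.07 and Stat6, which acts downstream of interleukin 4, 0.50 (adjusted p = 0.603 and 0.229).

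The comparison of CD45.2 cells labelled Dock8cpm/cpm with those labelled Dock8wt/wt asks how these genes depend on DOCK8, and no member passed the test in the planned fit. Ighd was 438.4, 439.7 and 256.4 CPM in non-plasma cells labelled Dock8wt/wt and 782.6, 481.7 and 519.0 CPM in those labelled Dock8cpm/cpm. All 3 of the latter lay above the former (log2 difference 0.53, SE 0.17), but the edgeR adjusted p was 0.289 in a fit that called 21 of 10243 genes (0.205%). Ighd was called in 2 of 15 settings and in none of 6 fits with a mouse left out. In 1 of these settings, without the cells that held sex-linked RNA of the other group, the difference was 0.76 (SE 0.16, edgeR adjusted p = 0.00333), and the sums of 1 mouse then held 10 cells. That setting dropped cells unevenly: Xist was in 54.7 to 69.8% of cells labelled Dock8cpm/cpm and Y-linked RNA in 3.30 to 3.76% of those labelled Dock8wt/wt. It called 105 genes (1.05%), 90 of them lower. EarlyGC1-like cells, high in Ighd, were 26.6% of non-plasma cells labelled Dock8cpm/cpm and 14.9% of those labelled Dock8wt/wt, and Activated_Memory-like cells were 9.13% and 26.0%. By the main hashtag rule single states held 2 to 48 cells labelled Dock8cpm/cpm over the 3 mice, so no state was compared alone. The part of the mix was not tested.

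Ighg2b was 263.5, 236.1 and 259.0 CPM in cells labelled Dock8wt/wt and 198.4, 170.6 and 222.0 CPM in those labelled Dock8cpm/cpm (log2 difference -0.45, SE 0.12, edgeR adjusted p = 0.139). The groups did not overlap. Ighg2b was called in 2 of 15 settings (lowest edgeR or DESeq2 adjusted p = 0.011) and in none of 6 fits with a mouse left out, and without the cells with sex-linked RNA of the other group the difference was -0.03. Ighm had -0.24 (SE 0.08, edgeR adjusted p = 0.303), with 5567, 4934 and 5112 CPM in cells labelled Dock8cpm/cpm and a call in 1 of 15 settings and 1 of 6 fits with a mouse left out, and Ighg1 0.01 (adjusted p = 0.994). Ighg2c, Ighg3, Igha and Ighe had log2 differences of -1.31, 0.09, -0.58 and -1.07, none called and all with few counts. Plasma cells labelled Dock8cpm/cpm numbered 1, 5 and 7 per mouse by the main hashtag rule and were not tested.

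Shares of cells with an Ighd UMI gave no call. After thinning, 52.3% ± 11 of cells labelled Dock8cpm/cpm and 42.2% ± 6.20 of those labelled Dock8wt/wt had an Ighd UMI (n = 3 mice each, two-sided exact permutation test, p = 0.3, 1 of 8 members compared). With 3 mice against 3 the smallest p is 0.1.

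CD45.1 cells, which were Dock8wt/wt in both recipient groups, gave the background for that comparison. No gene was called among 8663 (0%, edgeR quasi-likelihood test), with 593 at an unadjusted p under 0.05, and DESeq2 called 0. Ighd was 207.8, 140.5 and 170.2 CPM in recipients of cells labelled Dock8wt/wt and 149.9, 95.4 and 162.4 CPM in recipients of cells labelled Dock8cpm/cpm, with overlap (log2 difference -0.37, edgeR adjusted p = 0.673). Ighm, Ighg1 and Ighg2b had -0.05, 0.21 and -0.28.

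The last fit set the difference between groups in the CD45.2 cells against that in their CD45.1 partners from each mouse. Ighd differed by 0.95 on the log2 scale (SE 0.20, edgeR adjusted p = 0.0742), in a fit that called 3 of 9145 genes (0.0328%). Without the cells with sex-linked RNA of the other group it was 1.10 (SE 0.19, edgeR adjusted p = 0.000185, 1.08% of genes called). For this difference Ighd was called in 3 of 15 settings and in 3 of 6 fits with a mouse left out. Without the mouse block the edgeR adjusted p was 0.856 at a difference of 0.91, and the fit called 1 gene. As a ratio, Ighd amounted to 14.1, 9.76 and 10.2% of Ighm counts in CD45.2 cells labelled Dock8cpm/cpm and 7.39, 7.16 and 5.14% in those labelled Dock8wt/wt, against 2.17 to 4.91% in CD45.1 cells. The other members had differences between -2.29 for Ighe and 0.25 for Ighg3, none called.

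Of the 3 genes called, 2 are bound up with antibody RNA and 1 was Xist. Zfp318, which is needed to make Ighd from the shared transcript, was 148.8, 140.5 and 105.4 CPM in CD45.2 cells labelled Dock8cpm/cpm and 68.6, 67.5 and 37.2 CPM in those labelled Dock8wt/wt. In CD45.1 cells it was 25.7 to 38.9 CPM in both groups, and the difference of differences was 1.53 (SE 0.24, edgeR adjusted p = 0.00157). Zfp318 was not called without the mouse block, with hashtags normalized over each cell, with a 3-fold hashtag rule or without mouse 2 of the group labelled Dock8cpm/cpm, fits that each called 1 gene, and that one lower. Igkc was 15980, 16210 and 14840 against 20070, 19960 and 17940 CPM in the CD45.2 cells and 16030 to 16840 CPM in the CD45.1 cells (-0.41, SE 0.06, edgeR adjusted p = 0.000617). For Zfp318 and Igkc no fit without the cells with sex-linked RNA of the other group is given. None of the 21 switch recombination genes was called between recipient groups in either sort (median log2 difference 0.14 in CD45.2 and 0.17 in CD45.1 cells, against -0.02 and -0.00172 over all genes).

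Nearly every B cell had Ighm as its most abundant member. The leader was called in cells with at least 5 UMIs over the 8 genes, ties left out. Ighm led 6381 of 6407 CD45.2 cells, Ighg1 19, Ighg2b 5, Ighd 1 and Ighg3 1. In the CD45.1 sort Ighm led 3082 of 3126 cells, Ighg1 23, Ighd 14, Ighg2b 6 and Igha 1. A switched gene thus led 25 CD45.2 cells, which is 0.39% (95% Clopper-Pearson interval 0.253 to 0.576), and 30 CD45.1 cells, which is 0.96% (0.648 to 1.37). All T cells with a leader, 67 and 6, were led by Ighm. CD45.1 cells led by a switched gene were 14 of 680 in the DZ-like states (2.06%, 1.13 to 3.43), 12 of 1199 in the LZ-like states and 2 of 698 plasma cells. In the CD45.2 sort they were 8 of 1246 DZ-like (0.642%), 3 of 1418 LZ-like (0.212%) and 8 of 1468 plasma cells (0.545%). The difference between the sorts was not tested. The CD45.1 sort was shallower and could hold host cells. Of the 23 CD45.1 cells led by Ighg1, 13 had more Igkv5-43 than other Igkv UMIs, at 1 or 2 UMIs each, and 1 the reverse. Whether depth or host cells bear on these shares was not tested.

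**Figure D5:**
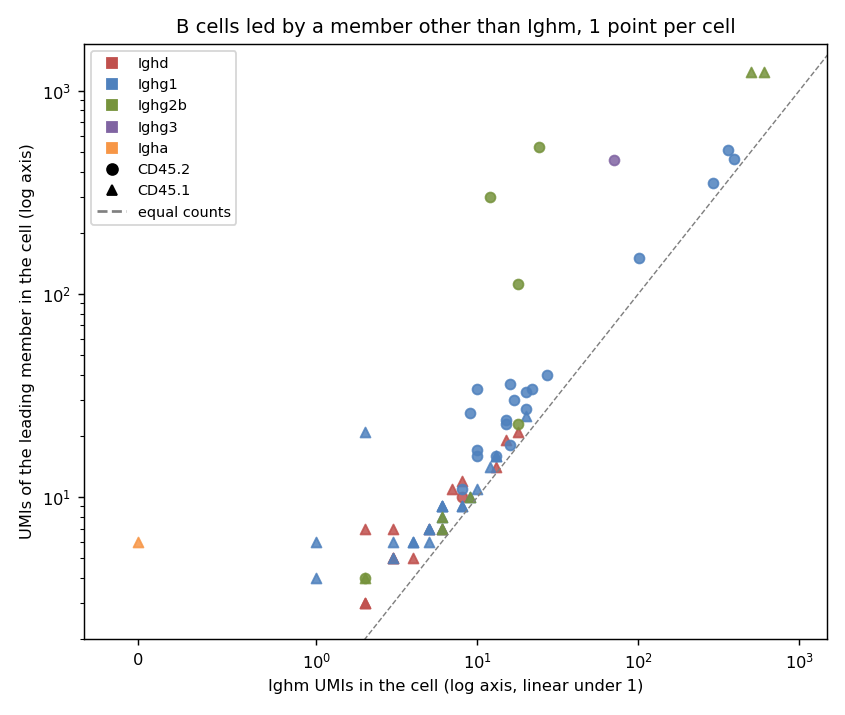
UMIs of the leading member against Ighm UMIs in the 70 B cells led by a member other than Ighm (log axes, linear under 1 for Ighm, dashed line for equal counts), colored by member and with circles for CD45.2 and triangles for CD45.1 cells. Outside the plasma cells most points lie near the line, and the 3 CD45.2 plasma cells led by Ighg2b lie far from it, with 112 to 526 Ighg2b and 12 to 24 Ighm UMIs.

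The lead varied between non-plasma cells. Among the wider were a CD45.1 DZ1-like cell with 21 Ighg1 and 2 Ighm UMIs and CD45.2 DZ2-like cells with 34 against 10 and 26 against 9. The 14 CD45.1 cells led by Ighd had a median of 7 Ighd UMIs (3 to 21) beside 4.5 Ighm UMIs. CD45.2 cells led by Ighg1 had a median of 26 Ighg1 UMIs (range 11 to 40) beside a median of 15 Ighm UMIs, and CD45.1 ones 9 (4 to 25) beside 6. In plasma cells it was wider for some. The 3 CD45.2 plasma cells led by Ighg2b held 526, 299 and 112 Ighg2b UMIs and 24, 12 and 18 Ighm UMIs, and all came from mouse 2 of the group labelled Dock8wt/wt. The 4 led by Ighg1 held 151 to 510 Ighg1 UMIs with a median of 327 Ighm UMIs. The 2 CD45.1 plasma cells led by Ighg2b had 608 and 499 Ighm UMIs beside their 1235 and 1234 Ighg2b UMIs.

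Igkv5-43, which the study lists as the light chain variable gene of the MD4 receptor, was present in most of these plasma cells. The 4 CD45.2 plasma cells led by Ighg1 held 221 Igkv5-43 UMIs and 1 UMI of all other Igkv genes, and the 2 CD45.1 plasma cells led by Ighg2b 112 and 1. The plasma cell led by Ighg3 was different, with 6 Igkv5-43 and 33 other Igkv UMIs. Of the 3 CD45.2 plasma cells led by Ighg2b 2 held 169 Igkv5-43 UMIs and no other Igkv UMI, and the third cell had none of either. Whether any of these cells is a mixed droplet was not tested.

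The genes whose levels went most closely with each member were found over 30 sums of state and sort, by Pearson's r of log2(CPM + 10) among 5112 genes. These sums share their library and free RNA, so r is a description. Ighm went with Igkv5-43 (0.99), Ighv3-8 (0.98), Txndc5, Igkc and Dnajb9 (0.98), the last an endoplasmic reticulum chaperone. Ighd went with Zfp318 (0.90), which is itself one of the markers behind the name EarlyGC1-like, followed by Ephx1, Trim7, Lifr and Il27ra (0.84 to 0.85). Ighg1 went less closely with any gene (Snd1, 0.79, then Txndc11, Lman2 and Hdlbp), and Ighg2b with Sub1 (0.86), Npc2, Ckap4, Rrbp1 and Ly6a. Ighg2c was closest to Cd9 (0.81), then Gm5547, Bst2, Sub1 and the agouti gene a. Ighg3 was closest to Bhlhe41 (0.63), then Adgre5, AI480526, Cd47 and Tpst2, and Igha to Socs2 (0.76), then Mt1, Mpc2, H1f0 and Arid3a.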

How the data were processed

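Single-cell mRNA and hashtag (HTO) libraries were made from the CD45.2 and CD45.1 sorts of 6 mice. The values are raw UMI counts per gene and barcode, deposited by the authors, who per the submitters' processing notes and the study's methods used Cell Ranger 5.0.1 with the mm10-2020-A transcriptome. How reads shared by near-identical genes were treated beyond this is not given in the sources used here. A deposited table names the mouse and group of each hashtag.

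Hashtags were called with HTODemux (Seurat 5.3.0, centred log ratio over each hashtag). Singlets that met the study's limits on genes per cell and had under 10% mitochondrial counts were kept. Doublets were removed only by hashtag, so pairs of cells from the same mouse remain. Cells of both sorts were clustered (resolution 0.9) on 3000 variable genes without immunoglobulin genes, and clusters were named from the study's state markers. Names were rebuilt here and may differ from those of the study. Counts were summed per mouse, sort and class, and a level by state needed 20 cells per mouse. Sums were tested with edgeR 4.0.16 (quasi-likelihood F-test, filterByExpr, TMM, R 4.3.3) over all genes that passed the filter, with Benjamini-Hochberg adjustment at 0.05. The mouse was a block wherever both sorts entered, since the same hashtag marked the same animal in each. Shares of cells per mouse were tested by exact permutation (Python 3.11.15, scipy 1.17.1). The tests were checked on simulated counts. Genes named besides the members were Dock8 and sex-linked genes as checks, fixed genes (Zfp318, Ell2, Jchain, Stat6) and the genes called from 4 pathway lists, the MD4 variable genes, the 5 genes most alike to each member with 50 CPM or more in a state, and the genes called in the fit over groups and sorts, the last named after their values were seen. Positions and sequences come from the GRCm38 genome and its annotation.

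Alternatives changed the test (DESeq2 1.42.0), normalization, filters, hashtag rule, clustering and mice. The members, lists and tests were chosen with earlier results of these data known. Plasma cells labelled Dock8cpm/cpm were too few per mouse for the minimum of 10 by the main hashtag rule and were left out. A few items that this rule names are not reported here.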

Additional observations from a re-analysis of the deposited data

Results flagged for a closer look

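In the fit that sets the difference between recipient groups in CD45.2 cells against that in CD45.1 cells of each mouse, 2 genes of the antibody lists were called. The test asks whether the difference between the sorts depends on the recipient group. Igkc, the kappa light chain constant region, had a difference of -0.408 on the log2 scale (SE 0.06, edgeR quasi-likelihood test, adjusted p = 0.000617), with lower values in all 3 CD45.2 samples labelled Dock8cpm/cpm. Zfp318, the factor needed for Ighd RNA, had 1.528 (SE 0.24, edgeR adjusted p = 0.00157), with higher values in 3 of 3. Zfp318 was not called without the mouse block, under either other hashtag rule or without mouse 2 of the group labelled Dock8cpm/cpm. Each of those 4 fits called 1 gene, a lower one, so at most 1 of Igkc and Xist was called there. The CD45.2 cells labelled Dock8cpm/cpm also differed from those labelled Dock8wt/wt in their mix of states, in their sex-linked RNA and in number (38 to 88 against 1224 to 1919 per mouse), and the part of these in either difference was not tested. In 25 groups of 4 to 6 mice tested for a single value far from the others none was found, where chance gives 5%.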

How the results depend on the processing

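The differences of Ighm, Ighd, Ighg1 and Ighg2b in every comparison and of Ighg3 in plasma cells kept their direction and side of the threshold in 292 of 340 values under other settings and in 85 of 99 with a mouse left out. Settings of single clusters, sex-linked RNA, shared barcodes, switched cells and others were added after seeing the data. Without the mouse block, which rests on shared hashtags, 351 genes were called between the sorts outside the plasma cells, 1497 in plasma cells and 1 in the fit over groups and sorts.

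Genes called between CD45.2 groups numbered 85 with DESeq2, 145 without the filter on low counts, 12 with a 3-fold hashtag rule, 7 in LZ and DZ states and 105 without cells holding sex-linked RNA of the other group, and 7 to 62 with a mouse left out. Between CD45.1 groups 52 were called without the filter, 1 in LZ and DZ states and 0 to 7 with a mouse left out. Between the sorts outside the plasma cells the counts were 194 (DESeq2), 818 (no filter), 160 (3-fold rule), 1325 (LZ and DZ states), 169 (Activated_Memory-like), 14 (EarlyGC1-like), 24 (LZ1-like), 173 (LZ2-like), 216 (DZ1-like) and 53 to 1536 with a mouse left out, 53 without mouse 2 and 1536 without mouse 3. In plasma cells they were 890 (DESeq2), 683 (PC2-like), 297 (PC3-like) and 1525 to 2000 with a mouse left out. In the fit over groups and sorts they were 41 (no filter), 1 (hashtags normalized over each cell), 1 (3-fold rule), 6 (without the 6% of cells with most UMIs), 98 (sex-linked RNA) and 1 to 36 with a mouse left out.

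For these genes the following signs turned. Ighg1 between CD45.2 groups was -0.032 without the filter, -0.046 with the 3-fold rule and -0.39 by sex-linked RNA (-0.14 to 0.11 with a mouse left out). Between CD45.1 groups Ighm was 0.047 and Ighg2b 0.11 in LZ and DZ states, Ighd 0.037 with the 3-fold rule and Ighg1 -0.060 with hashtags normalized over each cell (Ighm -0.11 to 0.0086 with a mouse left out). Between sorts Ighg1 was -0.070 in LZ and DZ states, -0.33 in DZ1-like and -0.21 in DZ2-like cells (-0.030 to 0.095). In plasma cells Ighg3 was -0.32 without the cells with most UMIs (-0.31 to 1.47). Over groups and sorts Ighg1 was 0.13 and Ighg2b 0.55 with hashtags normalized over each cell, and Ighg2b 0.15 by sex-linked RNA. With that hashtag normalization the difference between groups in CD45.1 cells led by a switched gene was -1.138 percentage points. Ighd in CD45.1 LZ1-like cells was 410.7 CPM with immunoglobulin genes kept for clustering, and Ighm in PC2-like cells was 155600 and 102500 CPM with them left out of library sizes. Outside that tally the rarer genes also changed sign: Ighg2c from -1.64 to 7.03 and Ighe from -7.90 to 1.26 over groups and sorts, Ighe from -7.11 to 1.04 and Igha from -8.20 to 0.21 between CD45.2 groups, and in plasma cells Ighe from -0.39 to 2.68, called in 1 of 14 settings (adjusted p = 0.00351), Ighg2c from -0.60 to 0.55 and Igha from -0.48 to 0.27. The causes were not tested, beyond fewer cells in single states.

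Limits: 3 mice per group, 38 to 88 non-plasma CD45.2 cells labelled Dock8cpm/cpm per mouse by the main hashtag rule, and free RNA near the CPM level of several states for Ighd and Ighg1 in the CD45.2 sort.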
